A study of Mus musculus with 6 samples.

Results

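The enzymes that join fatty acids to a glycerol backbone were examined in epididymal white fat of mice that carry an aP2-nSREBP1c transgene and of wild type littermates. The genes were chosen by name, with earlier results of these data known. They were 10 genes of triglyceride assembly (Gpam, Gpat3, Gpat4, Agpat3, Lpin1, Lpin2, Lpin3, Dgat1, Dgat2 and Mogat1) of 18194 genes named on the array. They were read by 21 probe sets, each annotated to 1 gene, of 45101 probe sets in all. A probe set is a group of short probes that report on 1 stretch of transcript, and 19 of the 21 were bright enough to be tested.

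The transgenic group were 3 males of strain C57BL6;SJL with the transgene, aged 10 weeks. The labels spell the transgene aP2-nSrebp1c, aP2-nSrebp1 and aP2-SREBP1c in the 3 mice. Its product is nuclear SREBP-1c, a factor that activates lipid synthesis genes, driven by the aP2 (Fabp4) promoter, which is active in fat cells and also in macrophages. The wild type group were 3 males of strain C57BL6;SJL of the same age, and the series text matches them by litter. The labels call the transgenic mice lipodystrophic, meaning that fat tissue is lost or poorly formed. Total RNA was measured on Affymetrix arrays, 1 mouse per array, and the deposited value is a MAS5 signal, a linear brightness per probe set. The number of arrays limits the precision.

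Triglyceride is built in the endoplasmic reticulum and at the outer mitochondrial membrane. A glycerol phosphate acyltransferase (Gpam, Gpat3 or Gpat4) adds the first fatty acid, a lysophosphatidate acyltransferase (the Agpat family, Agpat3 among them) adds the second, and a lipin (Lpin1, Lpin2, Lpin3) removes the phosphate to leave diglyceride. Dgat1 or Dgat2 then adds the last fatty acid, while Mogat1 reaches diglyceride by another route, from monoglyceride. Fat cells use these steps to store fatty acids, and loss of some of the enzymes, AGPAT2 in people or Lpin1 in mice, causes lipodystrophy.

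The promoter windows of the genes that were higher in transgenic fat are shown because SREBP-1c binds promoters of lipid genes, often beside a CCAAT box. Each window runs from 250 bases before to 50 after an annotated start, 5′ to 3′ on the gene's strand, from RefSeq on GRCm38.p6. Of the 10 genes 7 had a window, 11 windows in all; Dgat1, Dgat2 and Gpat4 had no entry. Of the 3 Lpin2 windows the one with CCAAT is shown. Capitals mark CCAAT, which reads ATTGG on the other strand.
Gpam, chr19:55127189-55127488, minus strand: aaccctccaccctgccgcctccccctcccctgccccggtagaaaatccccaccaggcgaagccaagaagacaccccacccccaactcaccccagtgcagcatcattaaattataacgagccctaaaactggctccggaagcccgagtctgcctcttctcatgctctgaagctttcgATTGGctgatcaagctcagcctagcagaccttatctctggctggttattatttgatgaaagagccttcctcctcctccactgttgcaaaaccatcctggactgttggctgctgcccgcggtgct
Gpam, chr19:55099428-55099727, minus strand: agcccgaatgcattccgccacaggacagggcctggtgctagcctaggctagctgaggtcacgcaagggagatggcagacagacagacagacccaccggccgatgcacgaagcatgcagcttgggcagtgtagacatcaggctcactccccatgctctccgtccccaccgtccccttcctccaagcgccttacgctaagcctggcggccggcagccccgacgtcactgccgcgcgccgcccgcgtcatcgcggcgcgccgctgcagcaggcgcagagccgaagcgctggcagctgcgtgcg
Agpat3, chr10:78351651-78351950, minus strand: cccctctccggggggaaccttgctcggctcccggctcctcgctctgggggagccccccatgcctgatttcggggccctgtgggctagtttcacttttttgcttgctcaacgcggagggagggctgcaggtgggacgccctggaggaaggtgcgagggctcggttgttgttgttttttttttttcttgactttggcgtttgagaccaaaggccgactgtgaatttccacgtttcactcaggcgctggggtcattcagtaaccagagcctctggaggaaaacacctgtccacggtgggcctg
Lpin2, chr17:71204404-71204703, plus strand: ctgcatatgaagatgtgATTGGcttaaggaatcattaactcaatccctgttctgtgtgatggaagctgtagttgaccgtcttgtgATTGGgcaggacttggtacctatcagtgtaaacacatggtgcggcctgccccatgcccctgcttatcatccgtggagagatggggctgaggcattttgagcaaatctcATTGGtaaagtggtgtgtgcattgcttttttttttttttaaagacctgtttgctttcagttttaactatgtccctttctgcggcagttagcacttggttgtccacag

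The window of the upstream Gpam start held 1 CCAAT on the reverse strand, 74 bases before the start. The window of the most downstream Lpin2 start held 3, at 233, 165 and 57 bases before it, and the second Gpam window and the Agpat3 window held none of the motifs searched. CCAAT was searched on both strands and occurred in 3 of the 11 windows and in 37.4% of all 32851 windows of this length. The 3 belong to Gpam, Lpin2 and Mogat1, and Mogat1 was not called higher. CACGTG, an E-box, occurred in 2 of the 11, 1 of Lpin2 (not the window shown) and 1 of Lpin3, and in 7.15% of all. TCACNCCAC, close to the classical sterol regulatory element, occurred in 0 of the 11 and in 1.24% of all. The 3 motifs do not contain one another. A match of letters is a description of the window and not a binding site, and the letters may lie outside these windows.

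The array of transgenic replicate 2 stood apart from the other 5. Its 3′ over 5′ signal ratio was 122 for the beta-actin control and 55.9 for Gapdh, against 1.11 to 1.81 and 0.772 to 1.22 on the other 5 arrays, and ratios this high are usually seen with shortened RNA. The Pcx control ratio split the arrays differently, with 3.10 in transgenic replicate 1 and 3.06 in wild type replicate 3, and 14.1 to 52.0 in the rest (classes under 10 and above, used as a block where stated). Among the 19 tested probe sets of the 10 genes, the signal of transgenic replicate 2 lay below both other transgenic arrays in 14, above both in 4 and between them in 1. Over all 27023 tested probe sets it lay below both in 54.5% and above both in 31.1%. The median log2 difference from the mean of transgenic replicates 1 and 3 was −1.33 for the 19 and −0.30 for all. The probe sets of the 10 genes are therefore given with all 6 arrays and without transgenic replicate 2, which leaves 2 transgenic arrays. The part of RNA length in any one result was not tested.

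**Figure D1:**
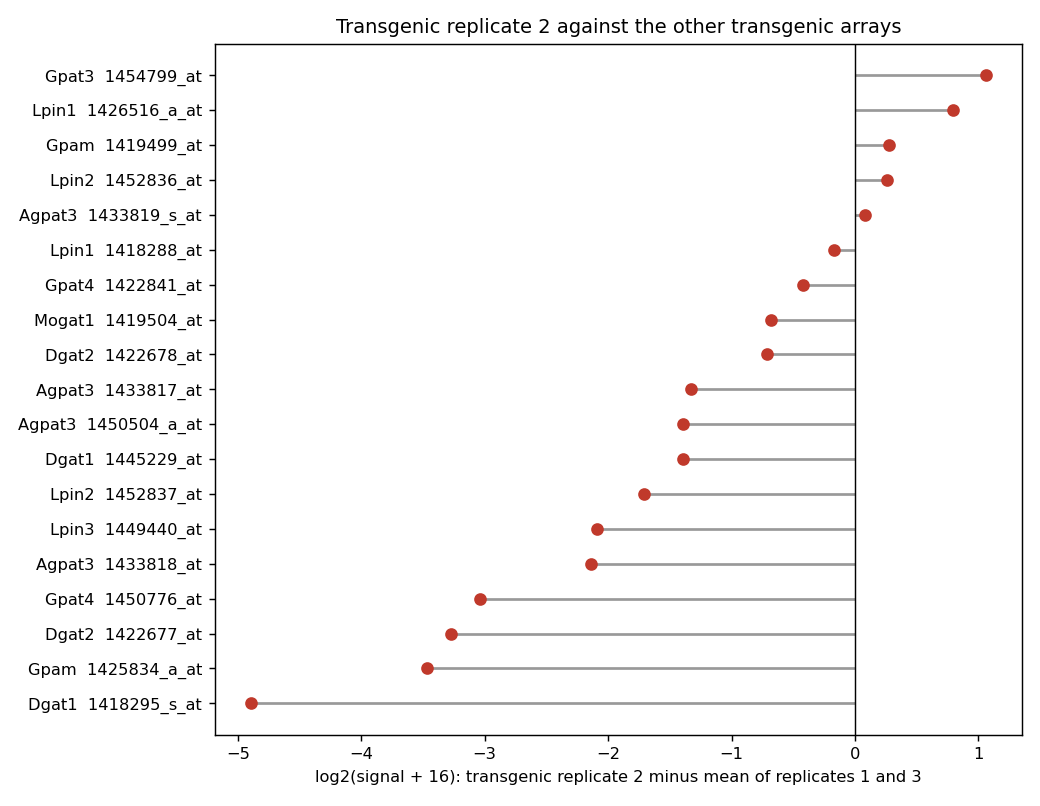
Difference in log2(signal + 16) between transgenic replicate 2 and the mean of transgenic replicates 1 and 3, 1 point per tested probe set of the 10 genes. The differences run from −4.89 for a Dgat1 probe set to 1.06 for Gpat3. Probe sets of the same gene differ in Gpam, Gpat4, Agpat3, Lpin1, Lpin2, Dgat1 and Dgat2.

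Transgenic and wild type fat were compared to ask which steps of triglyceride assembly differ in RNA level in this lipodystrophic fat. With all 6 arrays Gpam was 2.52-fold higher in transgenic fat on 1 of its 2 probe sets, and Agpat3 was 2.76-fold higher on 1 of its 4 probe sets. Without transgenic replicate 2 Lpin2 was also higher (1.84-fold), while Gpat3 was 2.24-fold lower and Dgat2 1.47-fold and 2.52-fold lower on its 2 probe sets. Gpat4, Lpin1, Lpin3, Dgat1 and Mogat1 passed the test in neither fit. Log2 fold changes are of signal + 16, tested with limma across all 27023 probe sets, and a probe set was called at a Benjamini-Hochberg adjusted p under 0.05. With all 6 arrays 2 of the 19 probe sets were called, both higher, 1 of Gpam and 1 of Agpat3. This is 10.5% of the 19, against 2.97% of all tested probe sets. None (0) was called lower by limma, and at an unadjusted p under 0.05 there were 3 higher and 2 lower. After transgenic replicate 2 was left out, limma called 8 of the 19, or 42.1% against 13.2% of all. The 5 higher ones belonged to Gpam, Agpat3 (3 probe sets) and Lpin2, and the 3 lower ones to Gpat3 and Dgat2 (both of its probe sets). Groups did not overlap in 6 of the 19 (31.6%) with all arrays, near the 27.2% of all tested probe sets, and in 10 (52.6%, against 42.6%) without transgenic replicate 2. The median log2 fold change of the 19 was 0.01, against −0.09 over all tested probe sets, and 0.12 against 0.03 without transgenic replicate 2. Fewer cells of a type and less RNA per cell cannot be told apart in whole tissue.

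**Figure D2:**
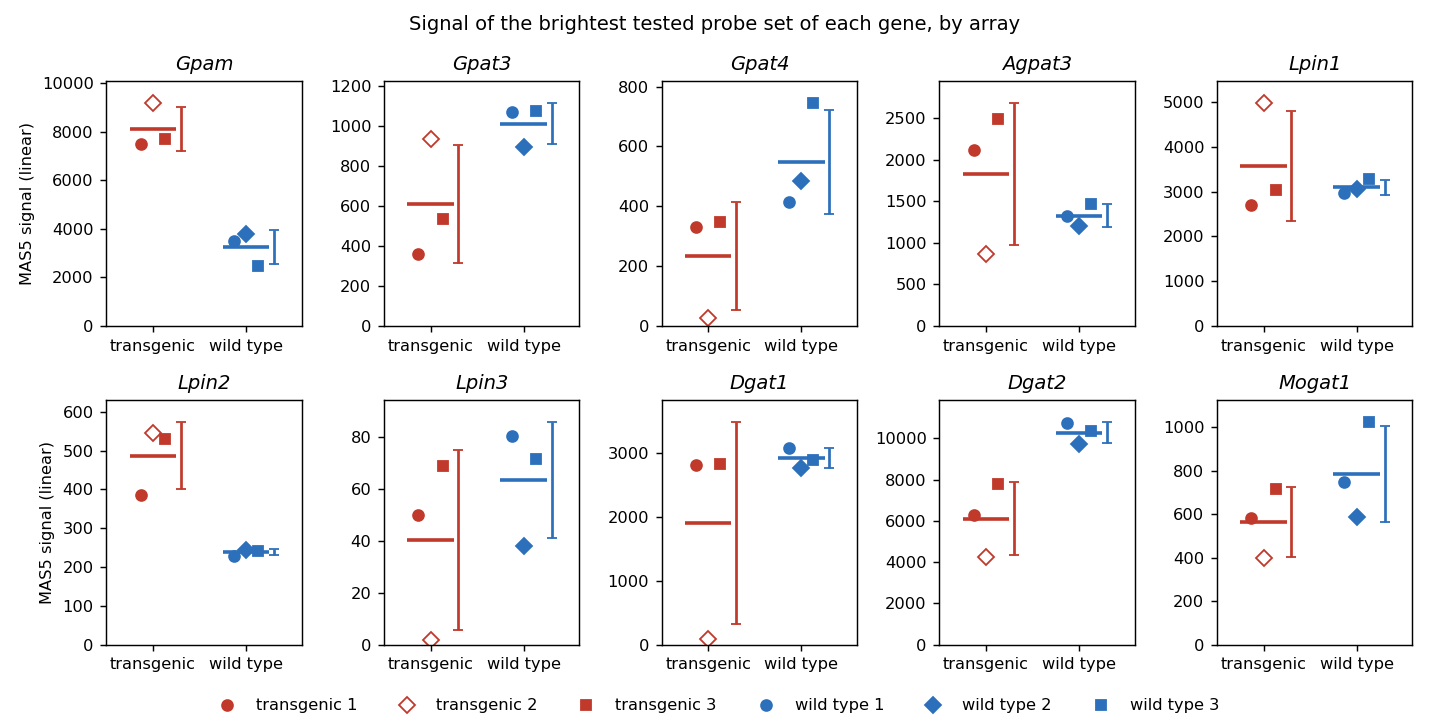
MAS5 signal on a linear axis from 0 for the brightest tested probe set of each of the 10 genes, 1 point per array, with the mean (line) and SD (bar) of 3 arrays. Gpam and Lpin2 are higher and Dgat2 and Gpat4 lower on all 3 transgenic arrays, and transgenic replicate 2 (open diamond) lies near 0 for Dgat1, Gpat4 and Lpin3.

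Gpam encodes the mitochondrial glycerol phosphate acyltransferase, which takes the first step and is a known SREBP-1c target. Its brighter probe set (1419499_at) read 7501, 9162 and 7674 in transgenic replicates 1 to 3, against 3495, 3781 and 2463 in wild type replicates 1 to 3. All 3 transgenic arrays were above all 3 wild type arrays, and transgenic replicate 2 was the highest. The mean was 8112 ± 913 in transgenic and 3247 ± 693 in wild type fat (SD, n = 3 each). Gpam was 2.52-fold higher (log2 fold change 1.33 ± 0.20 SE, limma adjusted p = 0.0223), and 2.37-fold higher without transgenic replicate 2 (adjusted p = 0.0024). Leaving out any other single array ended the call: the adjusted p was 0.0515 and 0.0813 without transgenic replicates 1 and 3, and 0.101, 0.0834 and 0.0807 without wild type replicates 1, 2 and 3. The log2 fold change ran from 1.15 to 1.46 over the 6 arrays left out in turn. With the replicate number as a block the adjusted p was 0.0596.

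The second Gpam probe set (1425834_a_at) read 2767, 118 and 775 in transgenic replicates 1 to 3, against 41.8, 291 and 1212 in wild type replicates 1 to 3. The groups overlapped, and the spread within each group was far larger than for the first probe set. Within each group the highest value stood on the array with the low Pcx ratio, transgenic replicate 1 and wild type replicate 3. Between those 2 arrays the log2 difference was 1.18, and between transgenic replicate 3 and the mean of wild type replicates 1 and 2 it was 2.57. The log2 fold change was 1.25 ± 1.39 SE (limma adjusted p = 0.676). Without transgenic replicate 2 it was 2.41 ± 1.03 SE (adjusted p = 0.174). With that array left out and the Pcx class as a block it was 1.97 (adjusted p = 0.0027). The part of the Pcx split in these values was not tested.

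**Figure D3:**
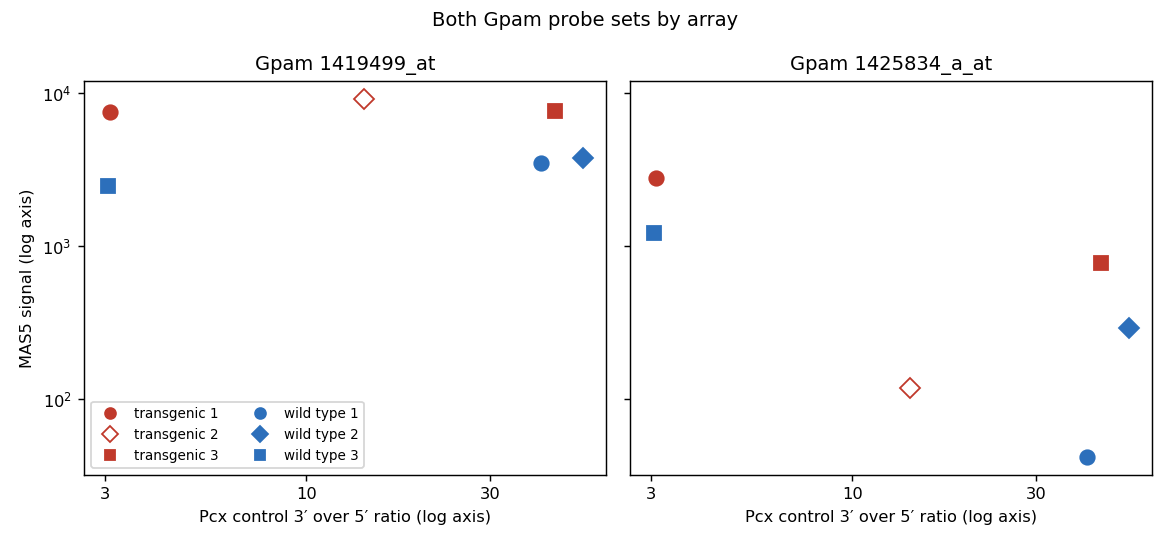
Signal of both Gpam probe sets (log axis) against the Pcx control 3′ over 5′ ratio of the same array (log axis). On the left the 3 transgenic arrays (7501 to 9162) lie above the 3 wild type arrays (2463 to 3781) at every ratio; on the right the 2 arrays with ratios near 3 read 2767 and 1212 and the other 4 read 41.8 to 775.

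Gpat3 and Gpat4 encode the acyltransferases of the same step in the endoplasmic reticulum, and neither was called higher with or without transgenic replicate 2. Gpat3, a main form in fat cells (1454799_at), read 361, 936 and 538 in transgenic replicates 1 to 3, against 1069, 895 and 1074 in wild type replicates 1 to 3. Transgenic replicates 1 and 3 were below every wild type array and replicate 2 was among them. The log2 fold change was −0.81 ± 0.36 SE (limma adjusted p = 0.334). Without transgenic replicate 2 Gpat3 was 2.24-fold lower (−1.17 ± 0.21 SE, adjusted p = 0.00617), and with the Pcx class as a further block it was −1.14 (adjusted p = 0.000173).

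Gpat4 had a probe set (1450776_at) with 330.0, 27.1 and 347 in transgenic replicates 1 to 3, against 414, 486 and 744 in wild type replicates 1 to 3. Every transgenic array was below every wild type array, and the 27.1 of replicate 2 was below that array's median signal of 37.7. The log2 fold change was −1.64 (95% interval −3.59 to 0.32, limma adjusted p = 0.387). With replicate 2 left out it was −0.63 (−1.19 to −0.06, adjusted p = 0.146). With the Pcx class as a block in addition it was −0.69 (adjusted p = 0.0175). The dimmer Gpat4 probe set (1422841_at) read 30.6 to 49.6 in transgenic and 46.8 to 78.2 in wild type fat, and its log2 fold change was −0.39 (limma adjusted p = 0.506) with all arrays and −0.24 (adjusted p = 0.627) with replicate 2 left out.

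Agpat3, which adds a second fatty acid and also remodels phospholipids, was read by 4 probe sets. The one called with all arrays (1433819_s_at) read 422, 522 and 577 in transgenic replicates 1 to 3, against 171, 190.3 and 157 in wild type replicates 1 to 3. The lowest transgenic value was above the highest wild type value, and transgenic replicate 2 lay between the other transgenic arrays. Agpat3 was 2.76-fold higher there (1.46 ± 0.24 SE, limma adjusted p = 0.028). Without transgenic replicate 2 it was 2.71-fold higher (adjusted p = 0.0019). The adjusted p was 0.0382 and 0.0948 without transgenic replicates 1 and 3, and 0.176, 0.169 and 0.182 without wild type replicates 1, 2 and 3. With the replicate number as a block it was 0.141. The suffix _s_at marks probes that can match more than one transcript, though the annotation gives this set 1 gene.

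The brightest Agpat3 probe set (1450504_a_at) read 2115, 864 and 2495 in transgenic replicates 1 to 3, against 1324, 1197 and 1464 in wild type replicates 1 to 3. Transgenic replicates 1 and 3 were above every wild type array and replicate 2 was below them all. Its log2 fold change was 0.32 ± 0.41 SE (limma adjusted p = 0.715) with all arrays, and 0.79 ± 0.17 SE (adjusted p = 0.0139), or 1.73-fold, without replicate 2. The other probe sets, 1433817_at and 1433818_at, had log2 fold changes of 0.14 and 0.18 with all arrays (adjusted p = 0.886 and 0.893), neither called. With replicate 2 left out these were 0.58 and 0.89 (adjusted p = 0.0974 and 0.0208). In all 3 of these probe sets transgenic replicate 2 was the lowest of the 6 arrays, whereas in 1433819_s_at it was not.

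**Figure D4:**
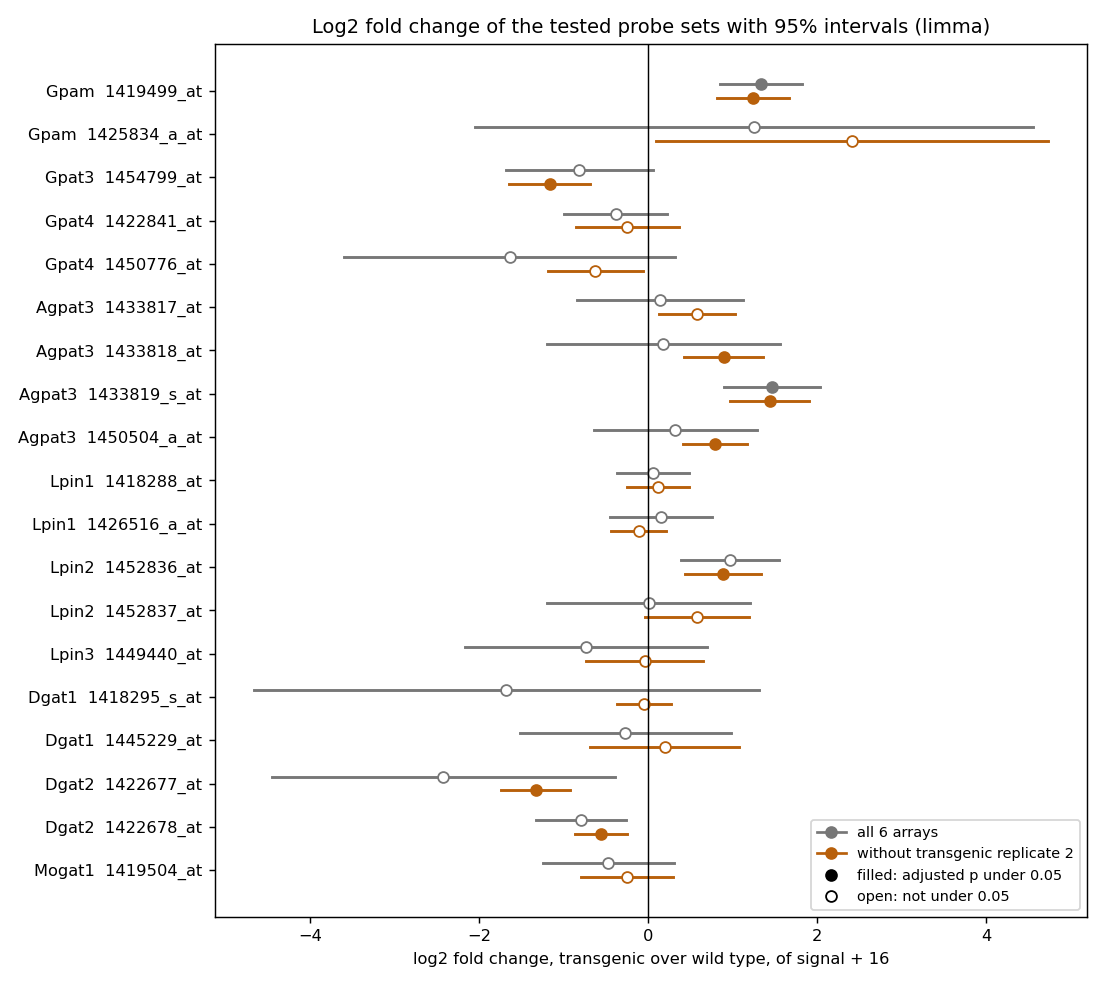
Log2 fold change (transgenic over wild type, of signal + 16) with its 95% interval for the 19 tested probe sets, with all 6 arrays (grey) and without transgenic replicate 2 (orange); filled points have a limma adjusted p under 0.05. Probe sets of Gpam, Agpat3 and Lpin2 lie right of 0 and those of Gpat3 and Dgat2 left of it in both fits. Without that array more of these points are filled, and the intervals of Dgat1, Dgat2 and Gpat4 narrow.

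The lipins are the phosphatidate phosphatases of the pathway, and their 5 tested probe sets had limma adjusted p of 0.102 or more with all 6 arrays. One of Lpin2 passed the test without transgenic replicate 2. Lpin1, the main lipin of fat, read 2700.0, 4968 and 3038 in transgenic replicates 1 to 3 on its brightest probe set (1426516_a_at), against 2968, 3046 and 3288 in wild type replicates 1 to 3. The groups overlapped, with transgenic replicate 2 highest and transgenic replicate 1 lowest. Its log2 fold change was 0.15 (95% interval −0.45 to 0.75, limma adjusted p = 0.789). Over the other 5 arrays it was −0.11 (−0.44 to 0.21, adjusted p = 0.684). The second probe set (1418288_at) had 0.06 (−0.36 to 0.49, adjusted p = 0.882), and 0.12 (−0.24 to 0.48) without that array. The 4 intervals hold no rise above 0.75 and no fall beyond −0.45 on the log2 scale, which is less than the Gpam value of 1.33.

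Lpin2 was read by 4 probe sets, of which 2 were tested. The brighter one (1452836_at) read 387, 545 and 529 in transgenic replicates 1 to 3, against 229, 244 and 242 in wild type replicates 1 to 3. The groups did not overlap, and the wild type arrays lay close together (238 ± 8.0, SD, n = 3). As a log2 fold change this was 0.97 ± 0.24 SE (limma adjusted p = 0.102). Without transgenic replicate 2 it was 0.88 ± 0.20 SE (adjusted p = 0.019), or 1.84-fold higher. The dimmer tested set (1452837_at) had 0.01 (adjusted p = 0.996) with all arrays and 0.58 (adjusted p = 0.219) with replicate 2 left out. The untested sets were among the dimmest 40% that were left out, and 1446316_at read 1.2 to 4.3 on the 6 arrays. Set 1460290_at read 54.9, 14.7 and 64.5 in transgenic replicates 1 to 3, against 7.7, 9.1 and 48.3 in wild type replicates 1 to 3. Its groups overlapped with all arrays but not without transgenic replicate 2. Lpin3 (1449440_at) was also dim, with 49.9, 1.6 and 68.9 in transgenic replicates 1 to 3, against 80.5, 37.9 and 71.6 in wild type replicates 1 to 3, and the groups overlapped. Its log2 fold change was −0.74 (95% interval −2.17 to 0.69, limma adjusted p = 0.574) with all arrays, and −0.04 (−0.73 to 0.65, adjusted p = 0.952) without transgenic replicate 2.

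Of the acyltransferases of the last step, Dgat2 passed the test without transgenic replicate 2 and Dgat1 did not, and the difference between the genes was not tested. Dgat2 encodes the enzyme tied to newly made fatty acids, and both of its probe sets were lower on every transgenic array. The brighter (1422678_at) read 6261, 4251 and 7784 in transgenic replicates 1 to 3, against 10764, 9723 and 10353 in wild type replicates 1 to 3. Its log2 fold change was −0.79 ± 0.23 SE (limma adjusted p = 0.141) with all arrays, and −0.56 ± 0.14 SE (adjusted p = 0.0262), or 1.47-fold lower, without transgenic replicate 2. The other (1422677_at) read 4518, 365 and 2983 in transgenic replicates 1 to 3, against 9797, 8530 and 9508 in wild type replicates 1 to 3. Its value in transgenic replicate 2 was 10.3 times below the mean of the other transgenic arrays, and its log2 fold change was −2.42 ± 0.86 SE (adjusted p = 0.226). Without that array it was 2.52-fold lower (−1.33 ± 0.18 SE, adjusted p = 0.0013). Both probe sets of Dgat2 cite 1 transcript record in the annotation, and they gave falls of different size. The mean wild type signal was 10280 on the brighter set and 9278 on the other. The highest signal of any probe set on any array was 15133. The cause of the different sizes was not tested.

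Dgat1, the enzyme that re-esterifies fatty acids from outside the cell and from lipolysis, read 2812, 79.6 and 2826 in transgenic replicates 1 to 3 (1418295_s_at), against 3084, 2771 and 2889 in wild type replicates 1 to 3. As for Agpat3, the suffix _s_at marks probes that can match more than 1 transcript, though the annotation gives this set 1 gene. The 5 arrays other than transgenic replicate 2 lay within 2771 to 3084, and replicate 2 was 35.4 times below the other transgenic arrays. With all arrays the log2 fold change was −1.68 (95% interval −4.66 to 1.31, limma adjusted p = 0.545). On the other 5 arrays it was −0.05 (−0.36 to 0.27, adjusted p = 0.878). This interval overlaps that of the brighter Dgat2 probe set in the same fit (−0.86 to −0.25). It does not overlap that of the other Dgat2 probe set (−1.74 to −0.92). The dim probe set 1445229_at read 22.6 to 116 in transgenic and 46.9 to 135 in wild type fat, with a log2 fold change of −0.27 (adjusted p = 0.82) with all arrays. The sign turned without transgenic replicate 2, to 0.20 (adjusted p = 0.806).

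Mogat1, which makes diglyceride from monoglyceride, read 580, 397 and 714 in transgenic replicates 1 to 3, against 746, 588 and 1025 in wild type replicates 1 to 3. The groups overlapped, and its log2 fold change was −0.47 (95% interval −1.25 to 0.30, limma adjusted p = 0.518). Without transgenic replicate 2 it was −0.25 (−0.79 to 0.30).

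Taking 1 probe set per gene, the brightest tested, 1 of the 10 genes was called with all arrays (10.0%, against 3.77% of 13112 genes) and 5 without transgenic replicate 2 (50%, against 15.4%). Gpam, Agpat3 and Lpin2 were then higher and Gpat3 and Dgat2 lower. The first step, with Gpam and Gpat3, thus held calls in both directions. Because the 10 genes were chosen with earlier results of these data known, the shares called do not test for an excess.

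Neighbouring genes of glycerolipid metabolism were described from 8 lists, 63 genes by name, of which 49 were tested. These lists were also chosen with earlier results of these data known, so their shares do not test for an excess. With all arrays limma called 6 higher and 2 lower, or 16.3% of the 49 against 3.77% of all genes. It called, without transgenic replicate 2, 11 higher and 8 lower, or 38.8% against 15.4%. The median log2 fold change of the 49 was −0.03, against −0.09 over all probe sets, and 0.03 against 0.03 without that array. All 6 higher calls were lost when transgenic replicate 3 or any 1 of the wild type arrays was left out.

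Among 6 tested relatives of the acyltransferases, Agpat4 was 4.95-fold higher (2.31 ± 0.40 SE, limma adjusted p = 0.0335) on a probe set whose suffix, _x_at, marks probes that may match other transcripts. It read 2772, 1222 and 3189 in transgenic replicates 1 to 3, against 348, 482 and 486 in wild type replicates 1 to 3, with no overlap, and leaving out 1 array raised the adjusted p to 0.17 at most. Agpat2, the lysophosphatidate acyltransferase gene of human lipodystrophy, read 7802, 5999 and 7874 in transgenic fat, against 4443, 3545 and 3794 in wild type fat. It had 0.87 ± 0.18 SE (adjusted p = 0.054) with all arrays and was 2.0-fold higher (adjusted p = 0.00177) without transgenic replicate 2. Lpgat1 had −0.89 (adjusted p = 0.0722) with all arrays and −1.02 (adjusted p = 0.00236) without that array. Of the other acylglycerol acyltransferases 2 were tested, and neither was called with all arrays. Mogat2 had −1.82 (adjusted p = 0.139) with all arrays and was 4.21-fold lower (adjusted p = 0.0156) without transgenic replicate 2. Tmem68 had 1.41 (adjusted p = 0.0663) with all arrays and was 2.22-fold higher (adjusted p = 0.00481) without it.

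Of 4 tested genes of glycerol phosphate supply 1 fell. Pck1, the cytosolic enzyme of glyceroneogenesis, read 58.4, 89.7 and 129 in transgenic fat, against 5012, 4519 and 5703 in wild type fat, a 48.6-fold fall (limma adjusted p = 0.000924). Aqp7, the glycerol channel, had −2.10 (adjusted p = 0.0553) with all arrays. With replicate 2 left out it had −1.80 (adjusted p = 0.00741). In the branch from phosphatidate and diglyceride to phospholipids 2 of 10 tested genes rose. Cds1, which makes CDP-diglyceride, was 2.96-fold higher (adjusted p = 0.0374, 0.226 at most when an array was dropped) and the cardiolipin synthase gene Crls1 2.28-fold (adjusted p = 0.0336, 0.202 at most). Of 6 tested diglyceride kinase genes Dgkd fell 3.45-fold (adjusted p = 0.0246, 0.174 at most).

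Among 8 tested genes of droplet formation the coat genes Plin2 (2.08-fold, limma adjusted p = 0.0143, 0.101 at most when an array was dropped) and Plin5 (4.90-fold, adjusted p = 0.0295, 0.174 at most) rose. The Plin5 probe set also has the suffix _s_at. The coat gene Plin4 went the other way, with −1.81 (adjusted p = 0.122) with all arrays and −1.20 (adjusted p = 0.000569) without transgenic replicate 2. Cidea had 0.76 (adjusted p = 0.734) with all arrays and 2.05 (adjusted p = 0.000691) without that array. Of 7 tested genes of triglyceride breakdown the monoglyceride lipase gene Abhd6 rose 5.08-fold (adjusted p = 0.0176, 0.124 at most). The hormone-sensitive lipase gene Lipe had −2.98 (adjusted p = 0.139) with all arrays. On the other 5 arrays it had −1.91 (adjusted p = 0.000192), and there 1 of the 7 genes was called higher and 2 lower. Of 6 phosphatases and lipin regulators 6 did not pass the limma test with or without that array.

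**Figure D5:**
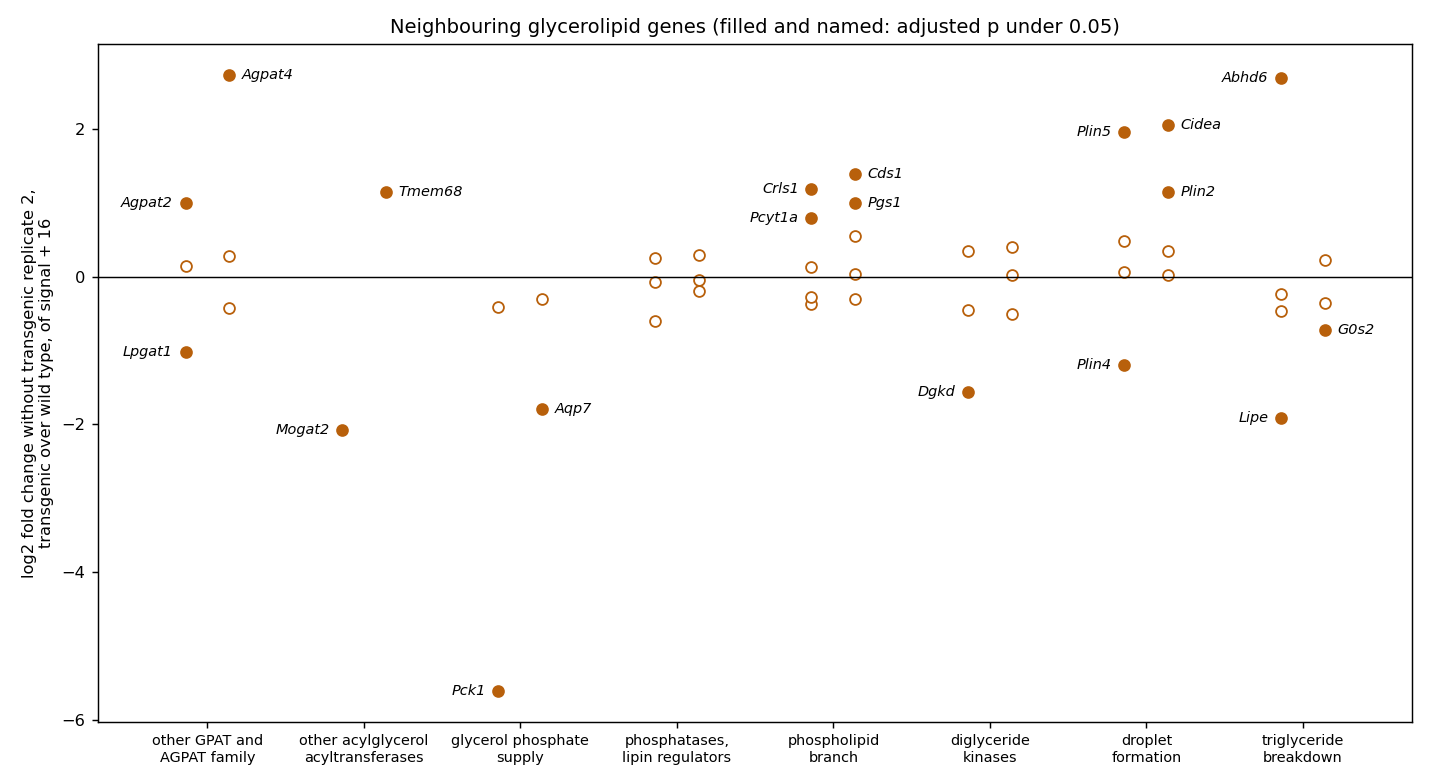
Log2 fold change without transgenic replicate 2 (transgenic over wild type, of signal + 16) of the 49 tested neighbouring genes in 8 lists; filled and named points have a limma adjusted p under 0.05. Of these 11 are above 0 and 8 below, with Agpat4 and Abhd6 at the top (2.73 and 2.68) and Pck1 at the bottom (−5.61).

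The summed signal of 11 tested adipocyte markers was 46486 to 61832 in transgenic and 81234 to 90454 in wild type fat, and 2 of the 11 fell (7 without transgenic replicate 2). That of 12 macrophage markers was 27207 to 37400 in transgenic and 14012 to 16614 in wild type fat, and 2 of the 12 rose, with 8 higher and 1 lower without that array. Over all genes 3.77% were called with all arrays and 15.4% without it. The sum of 5 mesothelial markers was 520 to 1721 in transgenic and 4324 to 5034 in wild type fat. Of these 5, 2 fell (4 without transgenic replicate 2). For 5 endothelial markers the sum was 1552 to 4156 in transgenic and 5197 to 5752 in wild type fat. Of these 5, 0 were called (3 lower without transgenic replicate 2). For 3 tested skeletal muscle markers it was 125 to 336 in transgenic and 485 to 1161 in wild type fat. Of these 3, 0 were called (1 lower without transgenic replicate 2). The sum of 5 tested brown adipocyte markers was 388 to 1242 in transgenic and 284 to 441 in wild type fat, and 1 of the 5 rose (2 without transgenic replicate 2). No tested marker was at 0, the lowest being 6.6 for an endothelial marker in transgenic replicate 2. Of 6 hepatocyte, 6 enterocyte and 8 epididymis and testis markers, 2, 1 and 1 were bright enough to be tested. The part of these cell types in the values of the 10 genes was not tested. Srebf1, the endogenous gene, read 3471, 4753 and 4338 in transgenic fat, against 1802, 2040.2 and 2036 in wild type fat (2.11-fold, limma adjusted p = 0.0342, 0.188 at most when an array was dropped and 0.148 with the replicate number as a block). The sources used here do not say whether that probe set also detects transgene RNA.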

How the data were processed

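The authors deposited 1 linear signal intensity for each probe set on each array. Per the submitters' processing notes it is a MAS5 value. Its version, scaling target and detection calls are not stated in the labels, and array medians ran from 37.7 to 65.4. The table held 0 columns of other samples.

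Probe sets were named through the platform annotation (34958 of 45101 have 1 gene, 932 several and 9211 none; symbols were checked by gene identifier, which changed 0). After 64 control probe sets and the dimmest 40% of the rest (by mean log2 over the 6 arrays) were left out, 27023 remained, and their log2(signal + 16) was used as deposited, with no added normalization. The groups were tested in R 4.3.3 with limma 3.58.1 (lmFit, eBayes with trend, two-sided, 4 residual degrees of freedom before moderation), with Benjamini-Hochberg adjustment over all tested probe sets and a threshold of 0.05. Intervals are 95% intervals of that fit. Counts by gene use the brightest tested probe set. The test was checked on simulated data in which every array had the same spread, so that check does not cover an array that stands apart. Tables used Python 3.11.15, pandas 2.3.3 and numpy 2.4.6, and figures matplotlib 3.10.9.

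Named are all 10 genes with every probe set, from each pathway list up to 4 genes past the threshold with the largest change, and Srebf1; genes called only without transgenic replicate 2 were named after their values were seen. The 10 genes and the lists were chosen with earlier results of these data known. Each array is a different mouse, so the p-values reflect both mouse and handling differences. No label ties the replicate number to a litter, so no block was used in the main fit. Deviations of same-numbered mice from their group means had correlations of −0.37, 0.09 and −0.05. These cannot show whether littermates deviate together, because the numbers are not labelled as litters.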

Additional observations from a re-analysis of the deposited data

How the results depend on the processing

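With 1 array left out in turn the probe sets past the limma threshold numbered 141 to 3565, against 802 with all arrays; of the 10 genes 0 to 3 were higher and 0 to 2 lower, against 1 and 0, and of the 49 neighbouring genes 0 to 11 were higher and 1 to 8 lower, against 6 and 2. The high ends are those without transgenic replicate 2. Leaving that array out with quantile normalization gave 4975 probe sets, 3 and 2 of the 10 genes and 13 and 12 neighbours, and with the Pcx class as a block 5937, 3 and 3, and 13 and 10. Array weights, which gave that array a weight of 0.0995 against 0.647 to 3.88 for the others, called 3359, 3 and 2, and 11 and 8. The replicate block gave 341 probe sets, 0 of the 10 genes and 1 and 1 neighbours. Centring on array medians called 0 of the 10 genes (Gpam adjusted p = 0.0719), as did averaging the probe sets of each gene (0.337 for Gpam, 1 neighbour lower), while quantile normalization called 4 neighbours lower; no filter called 4 neighbours higher. The cause was not tested. Reversed in sign, with no call on either side, were Lpin1 (−0.11 without transgenic replicate 2, −0.11 with the Pcx class as a block as well, −0.20 with quantile normalization as well, −0.034 with array weights) and Lpin3 (0.091 with array weights); with 1 array left out Lpin1 ran from −0.11 to 0.33. Offsets of 1 and 64, a filter of 60%, and eBayes without trend or robust left the counts of the 10 genes as they were. The values of the 10 genes under these alternatives were those of the brightest tested probe set, or of the mean over probe sets. Of these, 159 kept direction and side of the threshold, 17 passed it, 8 no longer did (all of them Gpam) and 5 were reversed. Only Gpam could lose a call here, because no other of these probe sets was called with all arrays. The called Agpat3 probe set was not counted. Its limma adjusted p was 0.0948 to 0.182 without transgenic replicate 3 or any 1 wild type array, and 0.141 with the replicate block.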
